A study of Mus musculus with 2 samples.

Results

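The 10 genes described here belong to the extracellular matrix of the embryonic heart and were compared in the apex of mouse hearts at stage E12.5, in mid-gestation, between Ezh2 mutants and heterozygous controls. They were chosen by symbol as a set: Has2, Vcan and Hapln1, which make the cardiac jelly; Fn1, a fibre-forming adhesion glycoprotein; and Postn, Sparc, Spp1, Tnc, Thbs1 and Ctgf, which encode matricellular proteins. All 10 were found among the 29383 genes of the table, each as 1 row. The mutant library came from embryos with both Ezh2 copies floxed (Ezh2f/f) and Cre recombinase under Nkx2-5 (Nkx2-5cre), a gene active in the heart lineage. The control library came from embryos with the same Cre and 1 floxed copy (Ezh2f/+), so the control can lose a copy too. Each library pooled the apex of 8 hearts, and there was 1 library per genotype. The differences given here therefore lack a replicate check. Bounds in brackets after a value are 95% bounds for counting error alone, and since the reads carry no molecular identifiers they may repeat a molecule. The comparison addresses which transcripts differ when both copies of Ezh2 can be recombined.

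Cardiac jelly is the hydrated matrix between the myocardium and the endocardium, the inner lining of the heart. Has2 makes its hyaluronan, a long sugar chain, onto which the proteoglycan versican (Vcan) is held by the link protein Hapln1, and the jelly fills the endocardial cushions and surrounds the growing trabeculae. Matricellular proteins are secreted into the matrix but mainly signal to cells, through integrins and other receptors. Ezh2 is the catalytic subunit of Polycomb repressive complex 2, which methylates histone H3 on lysine 27 and keeps developmental genes silent.

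Library totals were 14122579 reads in the mutant and 13944617 in the heterozygote. Ezh2 had 319 reads in the library labelled mutant and 493 in the heterozygote, a mutant-to-heterozygote ratio of 0.601 (0.521 to 0.694) over the whole gene model, which the table does not divide by exon. All 10 cardiomyocyte markers were present, with summed levels of 51614 CPM in the mutant and 52806 CPM in the heterozygote (CPM, counts per 1000000 reads, here scaled by TMM, the trimmed mean of M values). Markers of other cells were present as well, although the labels name only cardiomyocytes: none of the 10 endocardial and endothelial, 8 epicardial, 10 mesenchymal, 8 smooth muscle and pericyte, 11 leukocyte and 8 erythroid markers found in the table was at 0 in either library. In such mixed tissue, fewer cells of a type and less RNA per cell cannot be told apart.

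The 10 genes did not differ in 1 direction. Log2 ratios of mutant over heterozygote, with 1 CPM added to both levels, were above 0 for 4 of them (Has2, Thbs1, Hapln1 and Fn1) and below 0 for 6, with a median of -0.13 beside -0.008 over the 16185 genes tested, those that reached 1 CPM in the mutant or the heterozygote. All 10 passed this floor, and 48.8% of all tested genes were above 0. Has2 was the 1 gene at least 1.5-fold higher in the mutant on this scale, where 3.45% of all tested genes were; Spp1 and Ctgf were at least 1.5-fold lower, beside 1.88% of all tested genes. None was at least 2-fold higher, beside 0.605% of all genes, and Spp1 alone was at least 2-fold lower, beside 0.173%. Under TMM scaling the counting interval of the ratio left out 1 for 8 of the 10 genes, all but Hapln1 and Tnc. This says little about genotype at such depth, since it did so for 36.5% of all 16185 tested genes and for 44.9% of the 10663 whose mean level reached 10 CPM, which Has2 and Spp1 did not reach.

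**Figure D1:**
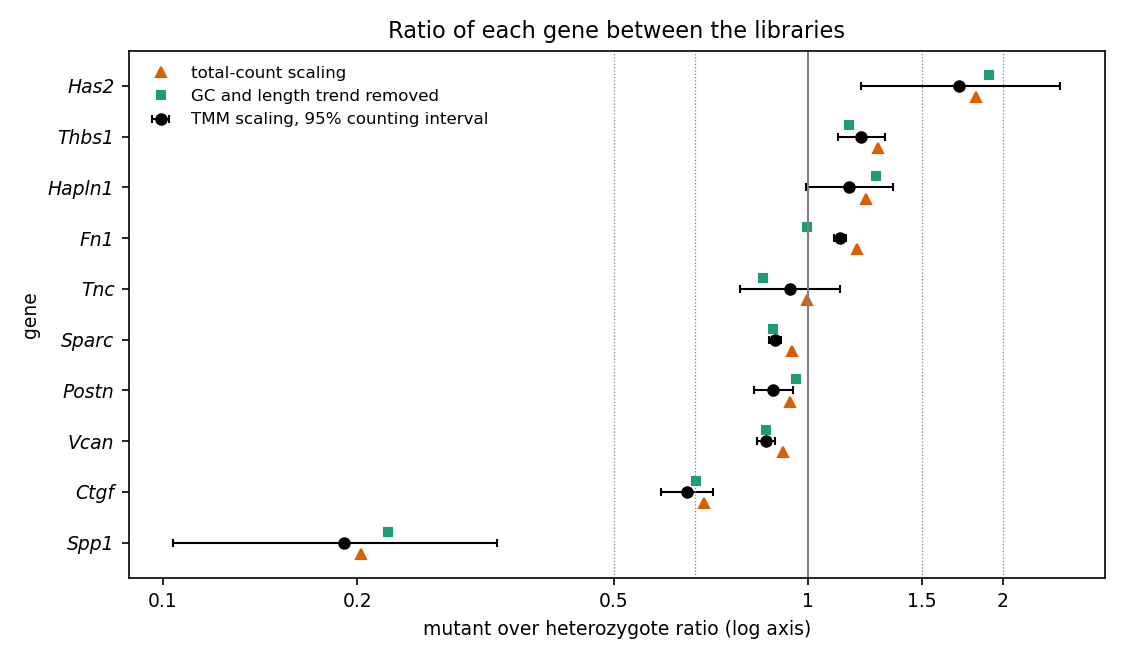
Ratio of mutant over heterozygote for each gene on a log axis, with its 95% counting interval, and the same ratio scaled by library totals or freed of the trend with GC content and length. Dotted lines mark 1.5-fold and 2-fold; Spp1 at 0.191 and Has2 at 1.71 lie farthest out, and the other 8 genes lie between 0.649 and 1.21.

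Together the 10 genes took 47336 reads of the mutant library, or 0.335% (Wilson interval 0.332 to 0.338), and 45572 reads of the heterozygote, or 0.327% (0.324 to 0.330). A second versican model, Cspg2, had 3022 reads in the mutant and 3256 in the heterozygote. Its reads are left out of these shares and of the levels given for Vcan. The order of these shares depends on the total they are set against. Outside mitochondrially encoded and globin genes the share was 0.379% in the mutant and 0.381% in the heterozygote. Fn1, Sparc and Vcan held 90.8% of the genes' reads in the mutant and 90.3% in the heterozygote. Fn1 was the most frequently read of the 10 in the mutant, at 39.8% of their reads against 34.3% in the heterozygote, and Sparc in the heterozygote, with 35.1% in the mutant against 38.2% in the heterozygote.

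Per kilobase of transcript the order of levels was led by Sparc, with 497 CPM per kb in the mutant and 559 in the heterozygote. Fn1 followed with 156 CPM per kb in the mutant and 139 in the heterozygote, then Vcan (41.6 in the mutant, 48.4 in the heterozygote), Postn (33.0 in the mutant, 37.4 in the heterozygote), Ctgf (21.1 in the mutant, 32.6 in the heterozygote), Thbs1 (15.2 in the mutant, 12.6 in the heterozygote) and Hapln1 (4.51 in the mutant, 3.89 in the heterozygote). These 7 genes kept their order in both libraries, while the last 3 places were reordered. Spp1 stood at 0.729 CPM per kb and last in the mutant, against 3.83 in the heterozygote, where it was next to Hapln1 and not separated from it by counting error. Has2 stood at 1.52 CPM per kb in the mutant and last in the heterozygote, with 0.890. Tnc had 2.46 CPM per kb in the mutant, above Has2 there, and 2.62 in the heterozygote, below Spp1 there.

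**Figure D2:**
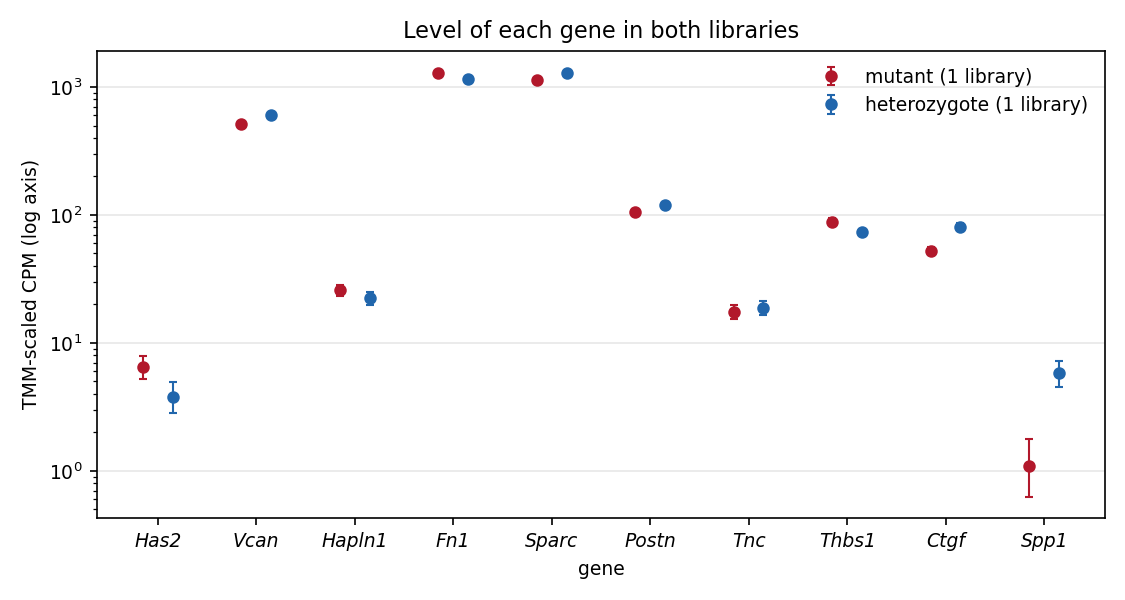
TMM-scaled level of each gene in CPM on a log axis, the mutant library in red and to the left, the heterozygote in blue. Bars are 95% exact Poisson intervals and are mostly smaller than the points; the levels span from 1.10 CPM for Spp1 to 1293 CPM for Fn1, both in the mutant.

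Among the genes of cardiac jelly, the synthase was higher in the mutant and the proteoglycan slightly lower. For the link protein, separation from equal levels by counting error depended on the processing. Has2 (chromosome 15, 56497184 to 56526053, minus strand, in the files' coordinates, whose build the sources used here do not name) encodes the enzyme that spins hyaluronan out of the cell. It had 94 reads in the mutant and 51 in the heterozygote, or 6.46 CPM (5.22 to 7.90) in the mutant against 3.77 CPM (2.81 to 4.96) in the heterozygote. The ratio was 1.71 (1.21 to 2.46) and the log2 ratio 0.64, at percentile 97.4 of all tested genes. The lower bound of that interval leaves room for a difference of 1.21-fold, so the size is known only roughly at this depth. With 5 CPM added to both levels the log2 ratio was 0.39, which ends the 1.5-fold call. A non-coding model on the opposite strand, overlapping Has2 by 4517 bases, had 15 reads in the mutant and 12 in the heterozygote.

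Vcan encodes versican, a large chondroitin sulphate proteoglycan that binds hyaluronan at one end. It lies on chromosome 13 (89794915 to 89882117, minus strand). Vcan had 7534 reads in the mutant and 8133 in the heterozygote, at 518 CPM (506 to 529) in the mutant against 601 CPM (588 to 614) in the heterozygote. Its ratio was 0.861 (0.834 to 0.888) and its log2 ratio -0.22, at percentile 19.96, a place well inside the bulk of all genes. The table holds a second model of exactly this span under the older symbol Cspg2, with 3022 reads in the mutant and 3256 in the heterozygote. Its ratio was 0.862 (0.820 to 0.906), and that of both models together 0.861 (0.839 to 0.884). No source used here says how the counting divided versican's reads between the models, so the level of Vcan depends on it, but the ratio was nearly the same for each.

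Hapln1 encodes the link protein that ties versican to hyaluronan. It lies next to Vcan on chromosome 13 (89680394 to 89751247, plus strand), and the genes point towards each other across 43.7 kb that hold no other model of the table. Hapln1 had 375 reads in the mutant and 301 in the heterozygote, at 25.8 CPM (23.2 to 28.5) in the mutant against 22.3 CPM (19.8 to 24.9) in the heterozygote. The ratio of 1.16 (0.992 to 1.35) was not separated from 1 by counting error under TMM scaling. The lower bound lies so close to 1 that a change of scaling can move it past 1. The log2 ratio of 0.20 was higher under the other scalings, up to 0.29 with library totals. Freed of the trend with GC content and length, the ratio was 1.27 and its interval of 1.09 to 1.48 left out 1. Set against Vcan within each library, which needs no scaling between libraries, Hapln1 had 0.0498 reads per Vcan read in the mutant and 0.0370 in the heterozygote, a ratio of 1.34 (1.15 to 1.57). Has2 had 0.0125 reads per Vcan read in the mutant and 0.00627 in the heterozygote, a ratio of 1.99 (1.41 to 2.80). These pairs were chosen after the values were seen.

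The 250 bases before the RefSeq start sites of these neighbours are shown because the genes share a locus and their proteins bind each other in the jelly. Capitals mark ACCACA on either strand, the core letters bound by RUNX factors. The Vcan window is chr13:89742513-89742762 and the Hapln1 window chr13:89540386-89540635, both in GRCm38.p6, each read 5′ to 3′ on its gene's strand.
Vcan: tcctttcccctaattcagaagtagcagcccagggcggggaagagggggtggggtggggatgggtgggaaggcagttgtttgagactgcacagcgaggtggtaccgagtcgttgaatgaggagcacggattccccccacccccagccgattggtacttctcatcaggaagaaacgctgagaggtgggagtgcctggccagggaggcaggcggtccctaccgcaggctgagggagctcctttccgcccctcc
Hapln1: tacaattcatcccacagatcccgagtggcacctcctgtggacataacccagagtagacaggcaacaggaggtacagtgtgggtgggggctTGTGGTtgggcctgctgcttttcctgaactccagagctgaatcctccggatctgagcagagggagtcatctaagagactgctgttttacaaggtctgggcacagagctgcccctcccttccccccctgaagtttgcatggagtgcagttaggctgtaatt
The Vcan window holds 10 CpG sites, more than 62.2% of the 32851 RefSeq windows, and the Hapln1 window 2, more than 18.8% of them; the median window has 6. CpG-rich promoters are, as background, the places where Polycomb complexes mostly sit. Hapln1 has 1 RUNX match, 160 bases before its start, and 14.0% of all windows hold at least 1. Neither window has the TATA box letters TATAAA on either strand, which 12.4% of windows hold. A match in letters is a description and not evidence of binding.

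Of the other genes of hyaluronan metabolism, 11 of the 16 tested were above 0 and 5 below, with a median log2 ratio of 0.12. At least 1.5-fold higher were 2 and at least 1.5-fold lower 0, beside 3.45% and 1.88% of all tested genes. Has3, a second hyaluronan synthase, had 56 reads in the mutant and 30 in the heterozygote (ratio 1.73, 1.09 to 2.80). Tnfaip6, whose protein TSG-6 binds hyaluronan and transfers proteins onto it, had 45 reads in the mutant and 21 in the heterozygote (ratio 1.99, 1.16 to 3.52). Of the remaining synthase, Has1, the libraries held 44 reads in the mutant and 45 in the heterozygote (0.909, 0.586 to 1.41). The genes of the sugar precursors were close to 1 or below: Ugdh, which makes glucuronic acid for the chain, had a ratio of 1.09 (0.965 to 1.23), and Ugp2, which supplies it, 0.847 (0.803 to 0.892). Cd44, the main hyaluronan receptor, had 1235 reads in the mutant and 921 in the heterozygote (1.25, 1.14 to 1.36). Cemip, listed in the table under its older name 9930013L23Rik and known for taking part in hyaluronan breakdown, had 110 reads in the mutant and 65 in the heterozygote (1.57, 1.15 to 2.17), which is under 1.5-fold once 1 CPM is added. Has1, Ugdh, Ugp2, Cd44 and Cemip were singled out after their values were seen.

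Proteoglycans and link proteins related to Vcan and Hapln1 were mostly scarce. Of 13, 8 reached 1 CPM, with a median log2 ratio of -0.18, which was 0.04 over all 13; 3 were above 0 and 5 below. The other hyaluronan-binding proteoglycans Acan, Bcan and Ncan stayed under 1 CPM in both libraries, as did Hapln2 and Hapln4, and Hapln3 had 22 reads in the mutant and 11 in the heterozygote. Of the small leucine-rich proteoglycans, decorin (Dcn), which binds collagen fibrils, had 593 reads in the mutant and 862 in the heterozygote, a ratio of 0.639 (0.575 to 0.711). Asporin (Aspn), its close relative, had 23 reads in the mutant and 63 in the heterozygote, a ratio of 0.339 (0.201 to 0.555). Aspn was the 1 gene of this list at least 2-fold lower, beside 0.173% of all tested genes. Biglycan (Bgn), named with its value known, had a ratio above 1, with 1822 reads in the mutant and 1416 in the heterozygote (1.20, 1.11 to 1.28).

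Among proteases that cut versican and other matrix, and their inhibitors, 10 of 14 tested were above 0 and 4 below, with a median log2 ratio of 0.10. Adamts4, which cuts versican and aggrecan, had 57 reads in the mutant and 27 in the heterozygote (ratio 1.96, 1.22 to 3.23). It was the 1 member at least 1.5-fold apart, on the higher side, where 3.45% of all tested genes were. Adamts1 and Adamts9, the versican proteases with most reads here and singled out for that, had ratios of 0.939 (0.862 to 1.02) and 1.08 (0.965 to 1.21).

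The fibre-forming and collagen-binding glycoproteins with the highest levels, Fn1 and Sparc, differed by small amounts in opposite directions. Fn1 (chromosome 1, 71632097 to 71699745, minus strand) encodes fibronectin, which cells assemble into fibrils through integrins. It had 18829 reads in the mutant and 15636 in the heterozygote, at 1293 CPM (1275 to 1312) in the mutant against 1156 CPM (1138 to 1174) in the heterozygote. The ratio was 1.12 (1.10 to 1.14) with a log2 ratio of 0.16. The log2 ratio was -0.008 once the joint trend with GC content and transcript length, below called the GC trend, was removed. Models on the opposite strand overlap Fn1 by 335 and 15 bases and had higher ratios themselves, 1.26 (1.15 to 1.38) for the wider overlap, at 1100 reads in the mutant and 814 in the heterozygote.

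Sparc (chromosome 11, 55208003 to 55233367, minus strand), or osteonectin, binds collagen and calcium and limits cell adhesion. It had 16632 reads in the mutant and 17405 in the heterozygote, at 1142 CPM (1125 to 1160) in the mutant against 1287 CPM (1268 to 1306) in the heterozygote. The ratio was 0.888 (0.869 to 0.907) and the log2 ratio -0.17. Fn1 had 1.13 reads per Sparc read in the mutant and 0.898 in the heterozygote, a within-library ratio of 1.26 (1.22 to 1.30), also chosen after the values were seen. The relatives of Sparc were not alike: Sparcl1 had 525 reads in the mutant and 678 in the heterozygote (0.720, 0.641 to 0.808), while Fstl1, with a follistatin-like domain, had 10070 reads in the mutant and 9415 in the heterozygote (0.994, 0.966 to 1.02). Sparcl1 and Fstl1 were singled out after their values were seen.

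Other proteins of matrix fibres were higher in the mutant in 13 of 17 cases, with a median log2 ratio of 0.19, and none was 1.5-fold apart. After removal of the GC trend that median was 0.02. Fbn2, an embryonic fibrillin, had 6737 reads in the mutant and 4539 in the heterozygote (1.38, 1.33 to 1.43). Nid2, a basement membrane nidogen, had 4673 reads in the mutant and 3092 in the heterozygote (1.40, 1.34 to 1.47).

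Periostin and tenascin C are matricellular proteins of the cushions and of the mesenchyme around them. Under TMM scaling periostin was lower in the mutant by about as much as Sparc. Tenascin C was not separated from equal levels by counting error. Postn (chromosome 3, 54165047 to 54194954, plus strand), which promotes collagen cross-linking and marks valve mesenchyme and fibroblasts, had 1542 reads in the mutant and 1623 in the heterozygote. Its level was 106 CPM (101 to 111) in the mutant against 120 CPM (114 to 126) in the heterozygote, a ratio of 0.883 (0.823 to 0.947). Without the GC trend the ratio of Postn was 0.958 (0.893 to 1.03), an interval that held 1. That of Sparc was then 0.881 (0.862 to 0.900). Tnc (chromosome 4, 63620819 to 63707966, minus strand), an anti-adhesive glycoprotein of remodelling tissue, had 254 reads in the mutant and 252 in the heterozygote, at 17.4 CPM (15.4 to 19.7) in the mutant against 18.6 CPM (16.4 to 21.1) in the heterozygote. The ratio of 0.937 (0.784 to 1.12) had an interval that held 1, and its log2 ratio was below 0 under all 5 scalings but 0.08 when Sparc was the reference within each library. A difference of Tnc within these bounds was not detectable at this depth. Tgfbi, the close relative of Postn, had 586 reads in the mutant and 420 in the heterozygote (1.30, 1.14 to 1.47), and the tenascin Tnxb 255 reads in the mutant and 298 in the heterozygote (0.795, 0.670 to 0.943); both were singled out after their values were seen. The markers of mesenchyme and fibroblasts summed to 1425 CPM in the mutant and 1412 CPM in the heterozygote, with 5 of 10 above 0, and those of the epicardium to 237 CPM in the mutant and 232 CPM in the heterozygote, with 4 of 8 above 0; their part in these values was not tested.

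Thbs1 and Ctgf, often named together as genes switched on by TGF-beta and by mechanical signals, differed in opposite directions. Thbs1 (chromosome 2, 117937658 to 117952869, plus strand) encodes thrombospondin-1, which activates latent TGF-beta and binds Cd36 and Cd47. It had 1294 reads in the mutant and 996 in the heterozygote, at 88.9 CPM (84.1 to 93.9) in the mutant against 73.6 CPM (69.1 to 78.3) in the heterozygote. The ratio was 1.21 (1.11 to 1.31) and the log2 ratio 0.27, at percentile 83.8 of tested genes. Ctgf (chromosome 10, 24315313 to 24318486, plus strand), now named Ccn2, encodes connective tissue growth factor, a secreted modulator of adhesion and growth factors. It had 766 reads in the mutant and 1097 in the heterozygote, at 52.6 CPM (49.0 to 56.5) in the mutant against 81.1 CPM (76.4 to 86.0) in the heterozygote. The ratio was 0.649 (0.591 to 0.712) and the log2 ratio -0.61, rank 256 from the lowest of 16185 genes. Ctgf was just past 1.5-fold, and its log2 ratio was no longer there at -0.53 under total-count scaling, at -0.57 after removal of the GC trend or with totals that leave out mitochondrially encoded genes, at -0.58 with 5 CPM added and at -0.45 relative to Sparc.

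Thbs1 and Ctgf were paired after their values were seen to differ in opposite directions, so a ratio away from 1 follows from the choice. Thbs1 had 1.69 reads per Ctgf read in the mutant and 0.908 in the heterozygote, a within-library ratio of 1.86 (1.64 to 2.11). These are reads not set against length; per kb of transcript the level of Ctgf was above that of Thbs1 in both libraries. A model on the opposite strand that overlaps Ctgf by 306 bases had 227 reads in the mutant and 278 in the heterozygote (0.759, 0.634 to 0.907).

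The families of both genes were compared member by member. Of 14 tested relatives of the matricellular genes, 8 were above 0 and 6 below, with a median log2 ratio of 0.04. Only Nov was at least 1.5-fold apart, on the higher side, where 3.45% of all tested genes were. Nov, a CCN protein like Ctgf, had 53 reads in the mutant and 26 in the heterozygote (ratio 1.89, 1.16 to 3.16). Cyr61, a CCN gene and like Ctgf a textbook YAP target, had 414 reads in the mutant and 378 in the heterozygote (1.02, 0.883 to 1.17), and Wisp1 587 reads in the mutant and 518 in the heterozygote (1.05, 0.934 to 1.19). Among thrombospondins, Thbs2 had a ratio of 1.45 (1.21 to 1.75), Thbs3 1.38 (1.11 to 1.73) and Thbs4 1.10 (1.02 to 1.18). Members other than Nov were named after their values were seen.

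Genes of TGF-beta and BMP signalling and of the YAP response, which includes textbook partners of Ctgf, were above 0 in 9 of 14 cases and below in 5, with a median log2 ratio of 0.07 that was -0.07 after removal of the GC trend. Ankrd1, a muscle ankyrin-repeat protein and YAP target, had 7591 reads in the mutant and 10724 in the heterozygote, a ratio of 0.658 (0.639 to 0.677) close to that of Ctgf. Bmp4 had 233 reads in the mutant and 139 in the heterozygote (1.56, 1.26 to 1.94). It was the 1 member at least 1.5-fold higher and Ankrd1 the 1 at least 1.5-fold lower, beside 3.45% and 1.88% of all tested genes. The further YAP targets Amotl2 (1.08, 0.979 to 1.18), Axl (1.03, 0.940 to 1.13) and Lats2 (1.02, 0.908 to 1.14), named after their values were seen, lay near 1.

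Spp1 stood apart from the other 9 genes. Spp1 (chromosome 5, 104864140 to 104870062, plus strand) encodes osteopontin, a secreted phosphoprotein that binds integrins and Cd44 and is made by macrophages, bone cells and injured tissue. It had 16 reads in the mutant and 78 in the heterozygote, at 1.10 CPM (0.628 to 1.78) in the mutant against 5.77 CPM (4.56 to 7.20) in the heterozygote. The heterozygote-to-mutant ratio was 5.25 (3.04 to 9.63), and the log2 ratio of mutant over heterozygote, -1.69, was the third lowest of 16185 genes. With 5 CPM added to both levels the log2 ratio was -0.82, which ends the 2-fold call. Within each library Spp1 had 0.000962 reads per Sparc read in the mutant and 0.00448 in the heterozygote, a pair also chosen after the values were seen. Spp1 lies in a cluster of bone phosphoprotein genes, and the others listed, Ibsp, Mepe, Dmp1 and Dspp, were listed with 0 reads in the mutant and 0 in the heterozygote; a count of 0 leaves room for up to 3.

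**Figure D3:**
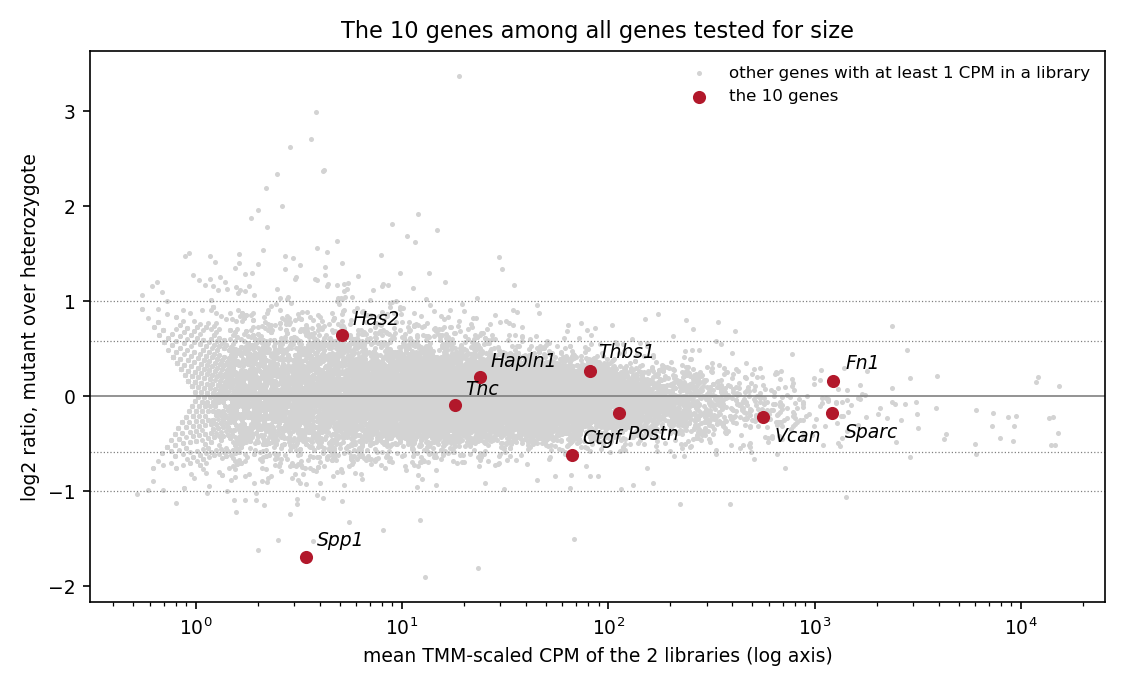
Log2 ratio of mutant over heterozygote against mean level in CPM (log axis) for the 16185 genes tested, with the 10 genes in red. Dotted lines mark 1.5-fold and 2-fold. Spp1 lies at -1.69, rank 3 from the lowest, and the low-level pericyte marker Rgs5 lies near it at -1.62. Rgs5 reached the floor of 1 CPM only in the heterozygote. Has2 lies at 0.64, percentile 97.4 of all tested genes, and genes of similar level lie above it.

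The 250 bases before the RefSeq start of Spp1 are shown because it is the gene farthest apart. The window is chr5:104434861-104435110 in GRCm38.p6 on the plus strand, read 5′ to 3′, with the TATA box letters TATAAA and the RUNX letters ACCACA in capitals.
Spp1: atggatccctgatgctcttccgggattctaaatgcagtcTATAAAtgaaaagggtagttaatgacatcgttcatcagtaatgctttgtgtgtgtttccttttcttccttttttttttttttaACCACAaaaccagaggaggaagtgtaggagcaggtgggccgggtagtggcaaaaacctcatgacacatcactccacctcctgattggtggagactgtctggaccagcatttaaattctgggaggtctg
The window has 3 CpG sites, more than 29.0% of all windows, and a GC content of 43.6% beside a median of 52.4%. Its RUNX letters begin 128 bases before the start, and RUNX factors are known to bind the promoter of this gene in bone cells. Its TATAAA begins 211 bases before the start, farther than a TATA box acts. In the Postn window, by contrast, TATAAA begins 26 bases before the start. Letters of the TEAD site (GGAATG) and of the AP-1 site (TGANTCA) were in none of the 6 windows found for the 10 genes, beside 12.6% and 6.75% of all windows on either strand.

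Leukocyte markers, among them those of macrophages, which make osteopontin, summed to 78.7 CPM in the mutant and 97.4 CPM in the heterozygote (ratio 0.808, 0.746 to 0.875). Of the 11, 3 were above 0 and 8 below, and none was at 0 reads. The 3 with the highest mean level had ratios below 1. Itgam had 178 reads in the mutant and 251 in the heterozygote (0.659, 0.541 to 0.802), C1qb 157 in the mutant and 191 in the heterozygote (0.764, 0.614 to 0.948), and Csf1r 196 in the mutant and 218 in the heterozygote (0.835, 0.685 to 1.02). Lyz2, listed under its older name Lyzs, had 109 reads in the mutant and 183 in the heterozygote (0.553, 0.433 to 0.705). It was the 1 marker at least 1.5-fold apart once 1 CPM is added, on the lower side, where 1.88% of all tested genes were. The markers above 0 were the macrophage gene Cd68, with 69 reads in the mutant and 40 in the heterozygote (1.60, 1.07 to 2.43), Tyrobp (1.29, 0.888 to 1.87) and Ptprc (1.12, 0.531 to 2.38). The pericyte marker Rgs5, singled out after its value was seen, had 7 reads in the mutant and 48 in the heterozygote (0.136, 0.0517 to 0.301), the lowest ratio of its list. Cspg4, another pericyte marker, had 1394 reads in the mutant and 984 in the heterozygote (1.32, 1.21 to 1.43), and the smooth muscle marker Tagln 2053 reads in the mutant and 1298 in the heterozygote (1.47, 1.37 to 1.58). The smooth muscle and pericyte list summed to 1612 CPM in the mutant and 1750 CPM in the heterozygote, with 2 of 8 above 0, Cspg4 and Tagln. Rgs5, Kcnj8 (0.527, 0.352 to 0.780) and Myh11 (0.483, 0.227 to 0.981) were the 3 at least 1.5-fold lower, beside 1.88% of all tested genes. Rgs5 and Myh11 passed the floor of 1 CPM only through the heterozygote, so their place among the 3 is not independent of that filter. The 3 with the highest mean level were Acta2 (0.845, 0.826 to 0.865), Cnn1 (0.983, 0.942 to 1.03) and Abcc9 (0.860, 0.809 to 0.915). Lyz2, Cd68, Tyrobp, Ptprc, Cspg4, Tagln, Kcnj8 and Myh11 were also named with their values known. Erythroid markers summed to 4381 CPM in the mutant and 6265 CPM in the heterozygote (0.699, 0.692 to 0.706), with 1 of 7 tested above 0. The part of these lists in the value of Spp1 was not tested.

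Of the receptors of the matrix proteins, 12 of 19 tested were above 0 and 7 below, with a median log2 ratio of 0.13, which was 0.02 after removal of the GC trend. Sdc4, syndecan-4, a heparan sulphate co-receptor for fibronectin, had 1272 reads in the mutant and 767 in the heterozygote (ratio 1.54, 1.41 to 1.69). It was the 1 receptor at least 1.5-fold apart, on the higher side, where 3.45% of all tested genes were. Of the integrin chains that bind osteopontin, Itgav had 1442 reads in the mutant and 1229 in the heterozygote (1.09, 1.01 to 1.18) and Itgb3 96 reads in the mutant and 78 in the heterozygote (1.14, 0.839 to 1.56). Of the fibronectin receptor, Itga5 had 2368 reads in the mutant and 2005 in the heterozygote (1.10, 1.03 to 1.17) and Itgb1 10785 reads in the mutant and 11769 in the heterozygote (0.852, 0.829 to 0.874). Of the thrombospondin-1 receptors, Cd36 had 754 reads in the mutant and 1008 in the heterozygote (0.695, 0.632 to 0.765). Cd47 had 313 in the mutant and 289 in the heterozygote (1.01, 0.855 to 1.18). Receptors other than Sdc4 were named for the ligands they bind, with their values known.

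Transcription factors listed for cushion mesenchyme, the cells that form when endocardium invades the jelly, were above 0 in 10 of 12 cases. The median log2 ratio was 0.33, with 5 at least 1.5-fold higher and 0 lower, beside 3.45% and 1.88% of all tested genes. Twist1, a mesenchymal regulator, had 97 reads in the mutant and 50 in the heterozygote (1.80, 1.27 to 2.59), and Prrx1, a homeobox gene of mesenchyme, 197 reads in the mutant and 105 in the heterozygote (1.74, 1.37 to 2.23). Gata5, an endocardial GATA factor, had 412 reads in the mutant and 244 in the heterozygote (1.57, 1.34 to 1.85), and Twist2 15 reads in the mutant and 1 in the heterozygote (13.9, 2.14 to 587). Twist2 passed the floor of 1 CPM only through the mutant, so its place among the 5 follows from that filter. The remaining gene, Sox9, named because the count is small, had 292 reads in the mutant and 172 in the heterozygote (1.58, 1.30 to 1.92). Snai2, singled out after its value was seen, had a ratio of 1.06 (0.841 to 1.34). Endocardial and endothelial markers summed to 1059 CPM in the mutant and 1098 CPM in the heterozygote, with 3 of 10 above 0. Nfatc1 (1.29, 1.14 to 1.46), named for standing on both lists, was above 0, so the lists do not divide cushion mesenchyme from endocardium. Both libraries are of the apex, and which cells held these transcripts was not tested.

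**Figure D4:**
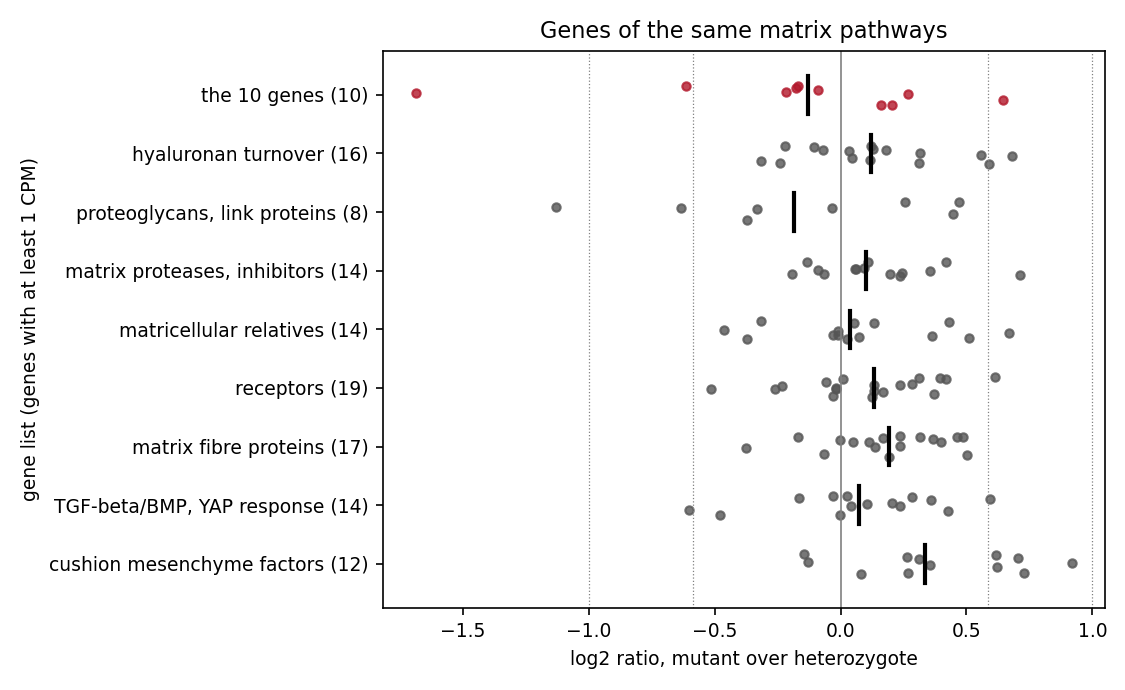
Log2 ratios of mutant over heterozygote for the 10 genes and for genes of 8 related lists, each point a tested gene and each black bar a list's median; numbers in brackets count the points and vertical scatter within a list carries no meaning. Medians lie between -0.18 for proteoglycans and link proteins and 0.33 for cushion mesenchyme factors.

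Log2 ratios between these libraries followed transcript GC content across genes, which are not independent replicates, with a Spearman rho of 0.44 over 10860 genes. Split by GC content into 10 equal groups, the genes poorest in GC had a median of -0.18 and the richest group one of 0.17. Has2 and Hapln1, at 40.6% and 39.8% GC, are among the transcripts with least GC (percentiles 5.93 and 3.92), where ratios tend to be low; their log2 ratios with the trend left in were 0.64 and 0.20. The trend that was removed is joint in GC content and transcript length. Without it the log2 ratio was 0.80 for Has2 and 0.34 for Hapln1, and the ratio of Hapln1 of 1.27 then had a counting interval of 1.09 to 1.48. Spp1, at 43.3% GC, had a log2 ratio of -1.46 without the trend, and Ctgf, at 49.2%, of -0.57. Postn was then at -0.06, Vcan at -0.22 and Sparc at -0.18, and Tnc, at 52.5% GC, at -0.23. These shifts are not those of GC content alone: the fitted log2 trend was -0.23 for Spp1 but 0.003 for Vcan, at 43.7% GC.

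**Figure D5:**
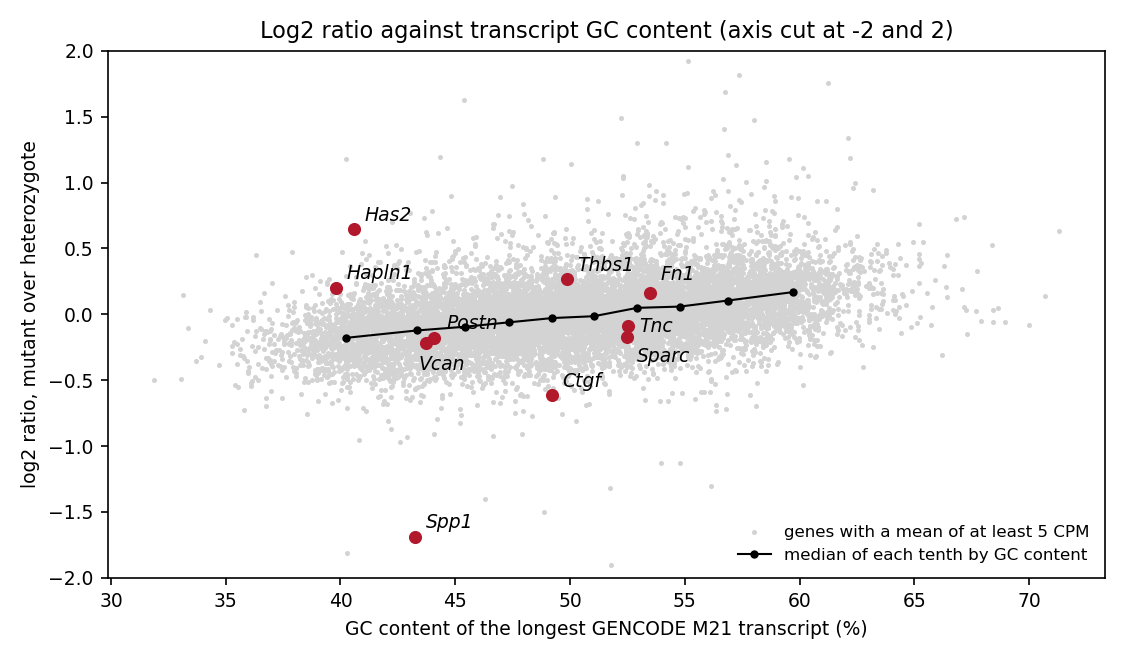
Log2 ratio of mutant over heterozygote against GC content of the longest coding transcript, for genes whose mean level reached 5 CPM in grey and the 10 genes in red, with the medians of 10 equal groups by GC as a black line. The line climbs between -0.18 and 0.17; Has2 and Hapln1 lie above it at low GC, and Spp1 and Ctgf below it.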

How the data were processed

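RNA of 2 libraries, 1 per genotype, was analysed. Whole-number read counts per gene model were deposited by the authors for both libraries, beside CPM of the library's own total, a fold (ratio of heterozygote over mutant) and a p-value from a test the file headers do not name; the fold and p-value were not used. Recomputed CPM matched the deposited CPM within 4.91e-11, and 0 of the counts in the per-sample tables differed from it. The libraries were made from total RNA with a full-length transcript kit, per the labels' protocols; for aligner, counter, strand and build no name was given in the sources used here, so reads of overlapping genes on opposite strands may be mixed.

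Rows of 1 symbol were summed (29595 models, 29383 genes). Counts were scaled by TMM in edgeR 4.0.16 under R 4.3.3, with factors of 1.03 for the mutant and 0.970 for the heterozygote. Ratios carry a 95% exact conditional Poisson interval (scipy 1.17.1), within-library ratios a 95% Wald interval on the log scale. Genes that reached 1 CPM in either library were ranked by log2((CPM + 1)/(CPM + 1)), which understates differences of low genes, and called at 1.5-fold and 2-fold. Code was tested on simulated data. The longest coding transcript of a symbol in GENCODE M21 gave its GC content and length, for 81.8% of tested genes. The trend removed, called the GC trend for short, is quadratic in both. Levels per kb use that length. DESeq2 1.42.0 gave alternative size factors. Promoter windows are from RefSeq (GRCm38.p6), found for 6 of the 10 genes; of several windows the one nearest the GENCODE start was used. From each related list the text names up to 4 genes at least 1.5-fold apart, or else the 2 with the highest mean, and from a marker list up to 3; genes outside this rule are marked. The 10 genes and all lists were chosen with earlier results of these data known, so no direction here is independent support.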

Additional observations from a re-analysis of the deposited data

How the results depend on the processing

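With 1 library per genotype no library could be left out. No paired analysis was possible because each genotype has a single library. Has2, Thbs1 and Hapln1 were above 0, and Spp1, Ctgf, Vcan, Sparc and Postn below 0, in the log2 ratio under all alternatives run; Fn1 (-0.008 without the GC trend) and Tnc (0.08 relative to Sparc) changed sign, so that 3 of 10 genes in place of 4 were above 0 without the GC trend. Over these alternatives the log2 ratio ranged from -2.29 to -0.82 for Spp1, from -0.62 to -0.45 for Ctgf and from 0.39 to 0.95 for Has2. It ranged from -0.18 to -0.008 for Postn and from -0.22 to -0.04 for Vcan. The values nearest 0 for these genes were those relative to Sparc, so their direction is not firm. The genes at least 1.5-fold lower numbered 2, but 1 under total-count scaling, without mitochondrially encoded genes in the total, without the GC trend and with 5 CPM added, and Spp1 was that gene each time; with 5 CPM added 0 were 1.5-fold higher or 2-fold lower. Counting intervals moved as well. Without the GC trend that of Hapln1 left out 1 (1.09 to 1.48), while those of Fn1 (0.974 to 1.02) and Postn (0.893 to 1.03) held 1. Over all genes the counts 1.5-fold higher, 1.5-fold lower, 2-fold higher and 2-fold lower were 559, 305, 98 and 28. They were 993, 573, 312 and 143 with 0.1 CPM added, 121, 50, 14 and 6 with 5 CPM, 279, 159, 50 and 14 with a floor of 5 CPM, and 348, 162, 64 and 20 without the GC trend; under total-count scaling 190 were 1.5-fold lower. The median of the matrix fibre list was 0.022 without the GC trend. The median of proteoglycans and link proteins was 0.04 with no filter on low values, and that of the TGF-beta, BMP and YAP list -0.07 without the GC trend. The genes' share of reads was 0.379% in the mutant and 0.381% in the heterozygote outside mitochondrially encoded and globin genes. Per kb of coding length, 6 of 10 genes held the same place in the order of levels in the mutant and 7 in the heterozygote. Summing the Vcan and Cspg2 models and the values relative to Sparc were chosen after seeing the data. Depth limits Has2 and Spp1 most, with at most 94 reads in a library.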
